A study of Mus musculus with 6 samples.

Results

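The genes described are 10 transcription factors of the epithelial-mesenchymal transition (EMT), listed by symbol with no rule on their values, though with earlier results of these data known: SNAI1, SNAI2, SNAI3, TWIST1, TWIST2, ZEB1, ZEB2, TCF3, TCF4 and PRRX1. All 10 were found among the 14915 gene symbols of the table. RNA-seq measured expression in B16F10 mouse melanoma cells, an established line, in 3 wild-type (WT) libraries and 3 libraries labelled B16F10 with the genotype ZBTB5-S127A. ZBTB5 is a transcription factor with a BTB domain and zinc fingers, and S127A puts alanine in place of a serine that takes a phosphate. Both groups received TNFα while amino acids were limiting, and no untreated library was analysed here, so no value below is a response to TNFα. How the mutant line was made, and whether it is 1 clone, is not given in the sources used here. Values are TPM, which divide reads by gene length and by the library total, so levels of different genes can be set side by side. The labels do not state that replicates were separate cultures, so p-values reflect only the spread among these libraries, which could be technical.

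EMT is a programme in which cells give up epithelial junctions and polarity and gain motility. The zinc finger proteins of the SNAI and ZEB families bind E-box words in DNA and repress the E-cadherin gene CDH1 and other epithelial genes. TWIST1 and TWIST2 are basic helix-loop-helix factors that pair with the E proteins TCF3 and TCF4, and PRRX1 is a homeobox factor of mesenchymal tissue. Melanocytes come from the neural crest, which uses these factors in development. In melanoma, ZEB2 and SNAI2 have been described with the differentiated state and ZEB1 and TWIST1 with a dedifferentiated state.

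The WT and S127A libraries held different sets of these factors. In WT libraries 4 members stood above 1 TPM, TCF3, ZEB2, TCF4 and SNAI2, and the other 6 lay at 0.18 TPM or less in each library. In S127A libraries 9 members lay above 14 TPM and SNAI3 was listed at 0. The 10 members summed to 142.95 to 152.32 TPM in WT and to 342.54 to 353.38 TPM in S127A. The same libraries differed widely in their melanocyte genes, which summed to 16714 to 17047 TPM in WT and to 36.2 to 41.7 TPM in S127A, and the part of this difference in the values below was not tested. With SOX10 at 341 ± 4.64 TPM in WT and 0.603 ± 0.116 TPM in the libraries labelled S127A (SD, n = 3), the mutation and a difference in cell identity cannot be told apart, and whether both groups are the same cell line is in doubt. Each difference below is one between libraries labelled S127A and WT. The E proteins TCF3 and TCF4 together made up 86.3 ± 3.30 TPM in WT and 61.6 ± 2.81 TPM in S127A, whereas the 8 other members went from 60.3 ± 2.39 to 286 ± 5.24 TPM (SD, n = 3 per group).

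Of the 10 members, 9 reached the mean of 1 TPM over the 6 libraries that was needed for a test. By limma on log2(TPM + 1), 6 of these 9 were higher in S127A (SNAI1, SNAI2, TWIST1, TWIST2, ZEB1, PRRX1) and 3 were lower (ZEB2, TCF3, TCF4), at an adjusted p under 0.05. Over all 10348 genes tested, 40.2% were higher, 49.8% were lower and 90.0% changed, so the bare count of changed members is near that background. The median log2 difference, S127A minus WT, was 4.02 over the 9 members and −0.12 over all genes tested. The first value is no bound, as 5 of the 6 members that rose were near 0 in WT, and it was 2.08 with a pseudocount of 5 and 6.53 with 0.1. Those 5 reached the mean of 1 TPM only through their S127A libraries, so once tested they could only be higher there. The count of members that rose and the median therefore depend on the filter, and are a description only. A pass with a log2 difference of at least 1 in either direction was seen for 35.4% of genes tested, and all 6 members that rose were past it, while the 3 that fell were not. Among all genes tested 1.06% had a larger absolute log2 difference than TWIST1, 11.4% a larger one than SNAI2 and 42.5% a larger one than ZEB2. In bulk RNA, fewer cells that express a gene and less RNA per cell cannot be told apart.

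**Figure D1:**
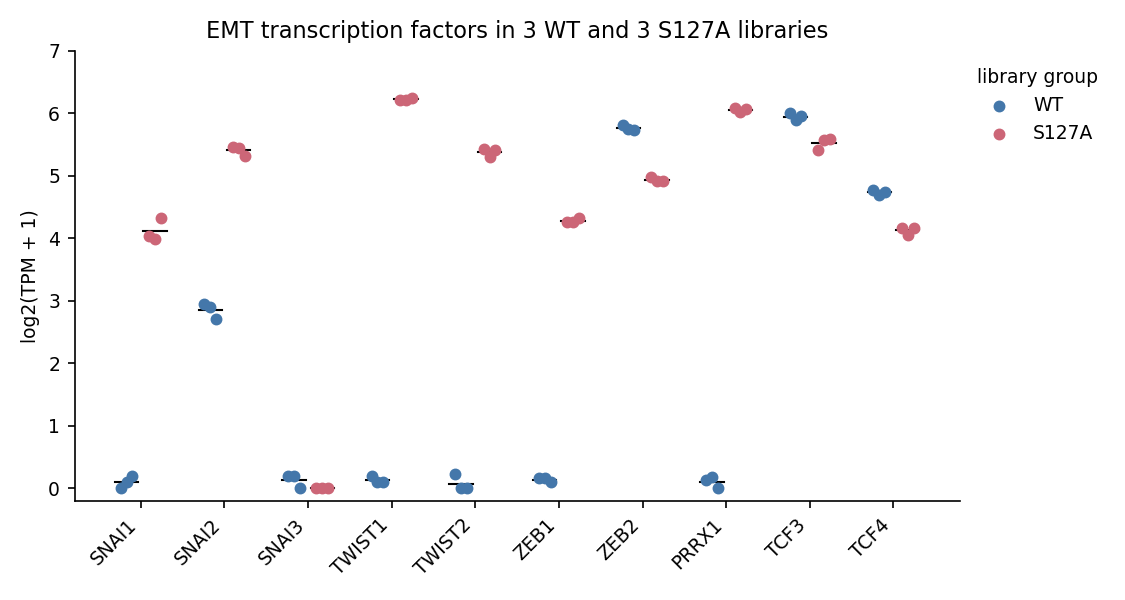
Level of each factor as log2(TPM + 1) in the 3 WT (blue) and 3 S127A (red) libraries, with the group mean as a black bar. WT libraries had ZEB2, TCF3, TCF4 and some SNAI2, while 6 factors lay near 0, and S127A libraries had all but SNAI3.

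RefSeq promoter windows (build GRCm38.p6, the same assembly as mm10) were found for 6 of the 10 members, Snai1, Twist1, Twist2, Zeb2, Prrx1 and Tcf3. The 250 bases before the start site are shown 5′ to 3′ on the gene's strand for 3 genes that rose together from near 0 and for Zeb2, which fell. Snai1 lies at chr2:167537945-167538194 (plus strand), Twist1 at chr12:33957421-33957670 (plus), Twist2 at chr1:91801211-91801460 (plus) and the most upstream Zeb2 window at chr2:45117443-45117692 (minus). Capitals mark the E-box word CACCTG, the word that SNAI and ZEB proteins are known to bind.
Snai1: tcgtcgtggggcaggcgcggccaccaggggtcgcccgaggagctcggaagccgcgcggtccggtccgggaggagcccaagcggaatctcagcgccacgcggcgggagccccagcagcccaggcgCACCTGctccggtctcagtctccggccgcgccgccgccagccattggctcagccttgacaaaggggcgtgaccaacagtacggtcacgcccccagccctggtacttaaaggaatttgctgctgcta
Twist1: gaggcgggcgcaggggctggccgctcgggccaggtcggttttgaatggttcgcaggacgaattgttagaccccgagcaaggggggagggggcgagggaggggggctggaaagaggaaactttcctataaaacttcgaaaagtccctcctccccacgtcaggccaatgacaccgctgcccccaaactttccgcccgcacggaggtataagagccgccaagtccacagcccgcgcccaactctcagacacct
Twist2: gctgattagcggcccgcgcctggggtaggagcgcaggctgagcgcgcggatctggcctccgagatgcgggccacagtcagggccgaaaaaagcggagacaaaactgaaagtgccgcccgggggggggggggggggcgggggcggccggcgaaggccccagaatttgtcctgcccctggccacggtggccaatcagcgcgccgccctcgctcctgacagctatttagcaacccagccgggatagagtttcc
Zeb2: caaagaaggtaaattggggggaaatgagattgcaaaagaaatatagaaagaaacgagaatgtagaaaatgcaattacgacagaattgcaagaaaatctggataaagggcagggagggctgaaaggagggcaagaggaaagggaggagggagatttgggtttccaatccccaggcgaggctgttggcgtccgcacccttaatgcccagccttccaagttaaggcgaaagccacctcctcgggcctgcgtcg
The words searched on both strands were the E-box CACCTG, the AP-1 word TGANTCA and the NF-kB consensus, with no overlap between matches. Snai1 had 1 match, CACCTG from 126 to 121 bases before its start, and the other 5 windows had 0 matches to any of the 3 words. Over all 32851 windows of this length, 17.2% held the E-box word, 6.75% the AP-1 word and 7.25% the NF-kB consensus. A match is a description of letters, and no binding was measured here.

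ZEB1 and ZEB2, paralogous repressors with zinc finger clusters at both ends and a homeodomain, went in opposite directions. ZEB1 (chromosome 18, 5591860 to 5775467, mm10) stood at 0.12, 0.12 and 0.07 TPM in the WT libraries and at 18.27, 18.17 and 19.07 TPM in the S127A libraries. Each S127A library lay far above each WT library, and the log2 difference was 4.14 (SE 0.0659, limma adjusted p = 4.62e-13). ZEB2 (chromosome 2, 44983632 to 45117395) stood at 55.38, 53.04 and 52.29 TPM in WT and at 30.45, 29.30 and 29.20 TPM in S127A. The groups did not overlap, and ZEB2 was 1.81 times as high in WT, a fall by 0.83 on the log2 scale (SE 0.0408, limma adjusted p = 5.01e-09). Among all genes tested 90.2% had groups that did not overlap.

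ZEB2 was the higher of the pair in all 6 libraries, by a margin that differed between the groups. ZEB1 made up 0.216%, 0.226% and 0.134% of the ZEB1 and ZEB2 sum in WT, and 37.5%, 38.3% and 39.5% in S127A. The sum moved far less than either share, from 53.7 ± 1.63 TPM in WT to 48.2 ± 0.633 TPM in S127A (SD, n = 3), as the rise of ZEB1 in TPM offset most of the fall of ZEB2. The log2 ratio of ZEB1 + 1 to ZEB2 + 1 was −5.63 ± 0.0318 in WT and −0.65 ± 0.059 in S127A, a difference of 4.98. By exact permutation of the 6 ratios, two-sided, p was 0.1, and 3 libraries against 3 cannot give a smaller one.

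SNAI1 and SNAI2, the zinc finger proteins Snail and Slug, both rose. SNAI1 (chromosome 2, 167538195 to 167542814) was listed at 0, 0.07 and 0.15 TPM in WT and stood at 15.42, 14.89 and 19.10 TPM in S127A. This was a log2 difference of 4.02 (SE 0.0995, limma adjusted p = 1.52e-11), and replicate 3 was the highest S127A library. SNAI2 (chromosome 16, 14705852 to 14709385) was expressed in WT at 6.77, 6.46 and 5.51 TPM and stood at 42.96, 42.73 and 38.83 TPM in S127A. It rose 6.64-fold in TPM, or by 2.55 on the log2(TPM + 1) scale (SE 0.0733, limma adjusted p = 5.15e-11). SNAI3, the third family member, was listed at 0.15, 0.15 and 0 TPM in WT and at 0 in the 3 S127A libraries, too low for a test.

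SNAI2 was the higher of the SNAI1 and SNAI2 pair in all 6 libraries. SNAI1 made up 0%, 1.07% and 2.65% of their sum in WT and 26.4%, 25.8% and 32.97% in S127A, while that sum went from 6.32 ± 0.584 to 57.98 ± 0.382 TPM (SD, n = 3). The log2 ratio of SNAI1 + 1 to SNAI2 + 1 was −2.75 ± 0.232 in WT and −1.29 ± 0.263 in S127A, a difference of 1.46 with no overlap (two-sided exact permutation p = 0.1, the smallest possible). That difference depends on the pseudocount, since SNAI1 is near 0 in WT. With a pseudocount of 5 it was 0.03 and the groups overlapped (exact permutation p = 0.9), and with 0.1 it was 3.95. Of the pairs compared, 2 in all, ZEB1 and ZEB2 moved in opposite directions and SNAI1 and SNAI2 in the same direction.

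**Figure D2:**
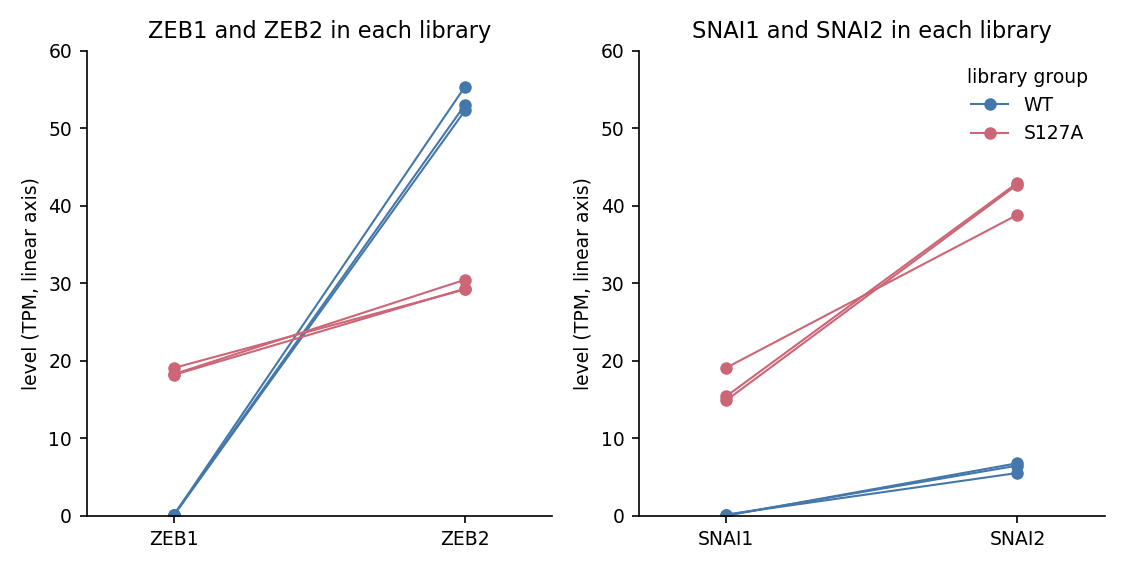
Levels in TPM on a linear axis of ZEB1 and ZEB2 (left) and of SNAI1 and SNAI2 (right), with a line joining the 2 genes of each library, blue for WT and red for S127A. ZEB2 is above ZEB1 and SNAI2 above SNAI1 in each of the 6 libraries, and the ZEB lines are flatter in S127A because ZEB1 rose while ZEB2 fell.

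The TWIST factors and PRRX1 had the 3 largest rises of the members. TWIST1 (chromosome 12, 33957671 to 33959829), a factor of cranial mesoderm and neural crest mesenchyme, stood at 0.15, 0.07 and 0.08 TPM in WT. It reached 73.29, 73.13 and 75.18 TPM in S127A, a log2 difference of 6.09 (SE 0.0593, limma adjusted p = 1.98e-14), and was the most abundant member there. TWIST2 (chromosome 1, 91801461 to 91848028), its close paralog, was listed at 0.18, 0 and 0 TPM in WT and at 42.14, 38.47 and 41.56 TPM in S127A (log2 difference 5.30, SE 0.0813, limma adjusted p = 3.59e-13). TWIST1 was the higher of the 2 paralogs in each S127A library and made up 64.5 ± 1.02% of their sum (SD, n = 3).

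PRRX1 (chromosome 1, 163245119 to 163313710), a homeobox factor of limb and craniofacial mesenchyme, was listed at 0.10, 0.14 and 0 TPM in WT. It stood at 66.82, 63.58 and 66.39 TPM in S127A, a log2 difference of 5.95 (SE 0.0677, limma adjusted p = 4.78e-14). Its paralog PRRX2, named after its values were seen, rose as well, from 0.32, 0.21 and 0.11 TPM to 25.07, 28.33 and 29.17 TPM (log2 difference 4.56, limma adjusted p = 1.69e-12).

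The E proteins fell, by less than the other members moved. TCF3 (chromosome 10, 80409514 to 80433647) stood at 63.13, 58.09 and 60.92 TPM in WT and at 41.67, 46.63 and 47.17 TPM in S127A. The groups did not overlap, and the log2 difference was −0.42 (SE 0.0531, limma adjusted p = 1.84e-05). TCF4 (chromosome 18, 69343356 to 69689079) stood at 26.34, 24.81 and 25.71 TPM in WT and at 16.88, 15.64 and 16.88 TPM in S127A, a fall by 0.61 (SE 0.0511, limma adjusted p = 5.52e-07). Older literature also uses the names TCF3 and TCF4 for the Wnt effectors TCF7L1 and TCF7L2. The table lists those under their own symbols with other values, so the 2 members here were read as the E proteins.

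In order of level, the WT libraries ran from TCF3 to ZEB2, TCF4 and SNAI2 with no overlap between neighbours, and the 6 members below SNAI2 overlapped their neighbours. In S127A the order began with TWIST1 and then PRRX1, which overlapped neither each other nor the next gene. TCF3 (45.2 ± 3.03 TPM), SNAI2 (41.5 ± 2.32 TPM) and TWIST2 (40.7 ± 1.97 TPM) came next (SD, n = 3), and each overlapped its neighbour within this group of 3. ZEB2 followed, and stood apart from ZEB1 below it. ZEB1, SNAI1 and TCF4 overlapped in turn, at means of 18.5, 16.5 and 16.5 TPM.

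Of the remaining E protein and the 4 ID proteins, which bind E proteins and keep them from DNA, 4 were tested, with 2 higher and 2 lower. These counts are no result about the list, as 40.2% of all genes tested were higher and 49.8% lower. TCF12, the most abundant E protein in WT, fell from 169 ± 3.93 to 44.2 ± 1.63 TPM (log2 change −1.92, limma adjusted p = 2.20e-12). In WT it stood above TCF3, and in S127A the 2 genes overlapped, at 44.33, 42.48 and 45.72 TPM against 41.67, 46.63 and 47.17 TPM for TCF3. ID2 fell from 59.1 ± 5.92 to 6.08 ± 0.490 TPM (log2 change −3.08), whereas ID1 rose from 0.797 ± 0.116 to 9.72 ± 1.09 TPM (2.57). ID3 rose from 2.03 ± 0.361 to 4.18 ± 1.52 TPM (limma adjusted p = 0.0028), with 2.67 TPM in the lowest S127A library and 2.44 TPM in the highest WT library. ID4 was listed at 0 in all 6 libraries.

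Of 20 corepressors and chromatin enzymes that SNAI, ZEB or TWIST proteins recruit, 18 were lower in S127A, 1 was higher (AJUBA, named after its values were seen) and 1 did not pass. Over all genes tested 49.8% were lower and 40.2% higher. The median log2 difference was −0.76, beside −0.12 over all genes tested. The CtBP corepressors, which bind ZEB proteins directly, fell from 163 ± 1.29 to 135 ± 5.47 TPM for CTBP1 and from 66.3 ± 4.55 to 40.7 ± 2.70 TPM for CTBP2. The deacetylase HDAC2 fell from 190 ± 6.26 to 76.1 ± 4.26 TPM, RCOR1, the scaffold of the CoREST complex, from 71.4 ± 1.55 to 26.0 ± 0.964 TPM, and the remodeller ATPase SMARCA4 from 149 ± 2.53 to 62.9 ± 2.20 TPM. WTIP, a LIM protein of the AJUBA family that binds SNAI proteins, had the largest fall of the list, from 44.3 ± 2.31 to 0.08 ± 0.0346 TPM.

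**Figure D3:**
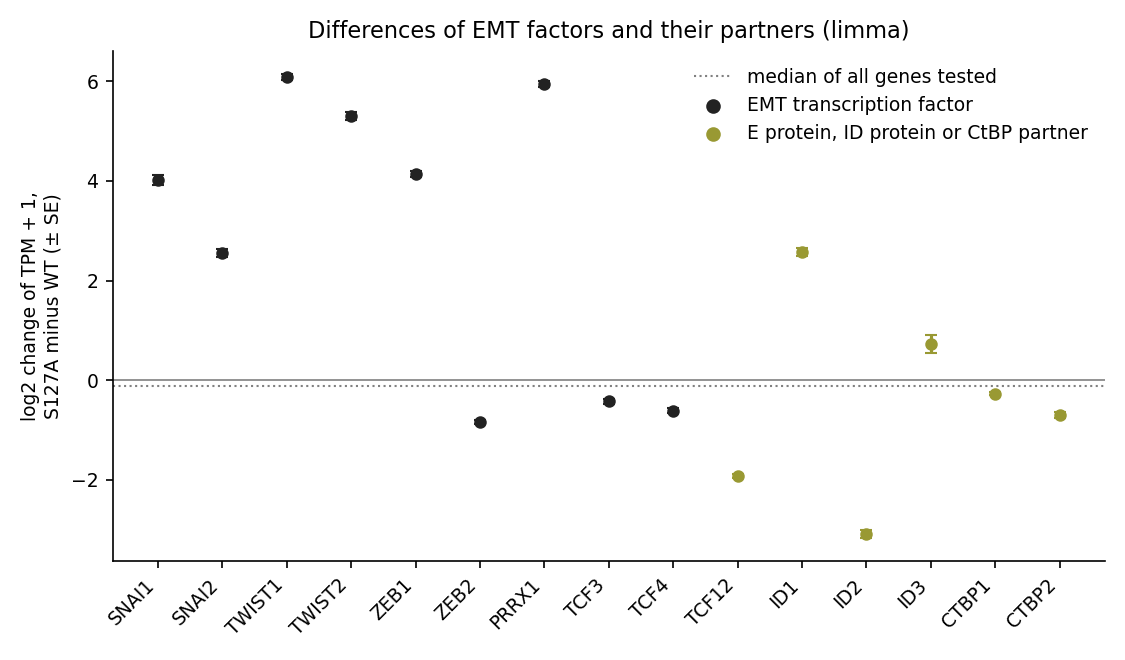
Log2 difference of TPM + 1, S127A minus WT, for the 9 tested factors (black) and for an E protein, ID proteins and CtBP corepressors (olive), with bars of 1 SE from limma, and a dotted line at the median of all genes tested, −0.12. The factors that rose lie between 2.55 and 6.09 and those that fell between −0.83 and −0.42.

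Of 15 tested regulators of the stability of these proteins 7 were higher and 6 lower, with a median log2 difference of 0.03. These shares are near those over all genes tested, 40.2% higher and 49.8% lower, and are no result about the list. PAK1, a kinase that phosphorylates SNAI1, was listed at 0.07, 0 and 0 TPM in WT and stood at 8.24, 8.76 and 9.33 TPM in S127A. The ubiquitin ligase subunit FBXL5 rose from 31.3 ± 1.04 to 76.3 ± 0.842 TPM, the ubiquitin ligase MDM2 from 103 ± 2.51 to 232 ± 3.89 TPM and the kinase CSNK1E from 37.5 ± 1.90 to 85.6 ± 2.16 TPM. GSK3B, a kinase that marks SNAI1 for degradation, was picked with its values in view, and its mean fell from 65.3 to 44.5 TPM. Protein levels were not measured here.

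Of 23 tested signals and factors known to induce the EMT factors 10 were higher and 11 lower, with a median log2 difference of −0.10, close to the 40.2%, the 49.8% and the median of −0.12 over all genes tested. The receptor kinase AXL rose from 7.31 ± 0.437 to 878 ± 7.51 TPM, the AP-1 subunit FOSL1 from 0.367 ± 0.112 to 397 ± 15.1 TPM and the receptor FGFR1 from 0.123 ± 0.0503 to 31.9 ± 1.37 TPM, while the receptor MET fell from 176 ± 6.91 to 32.0 ± 0.367 TPM. Ligands of the TGF-beta family, named after their values were seen, were split. TGFB1 rose from 25.1 ± 1.07 to 93.4 ± 2.85 TPM, whereas TGFB2 fell from 7.38 ± 0.302 to 0.74 ± 0.02 TPM and TGFB3 from 18.8 ± 1.90 to 7.92 ± 0.410 TPM.

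CDH1, the classical target of these repressors, was near 0 in both groups. It was listed at 0.16, 0.08 and 0.14 TPM in WT and at 0, 0.13 and 0.05 TPM in S127A, and was too low for a test. Of 36 epithelial genes 32 were listed, and 23 of those stayed under 1 TPM in all 6 libraries, among them OCLN, CLDN3, CLDN4, CLDN7, ESRP1, ESRP2 and OVOL2. Of the 7 that could be tested, 3 were higher and 3 lower. Over all genes tested 40.2% were higher and 49.8% lower, so these counts are no result about the list. The keratin KRT18 was listed at 0.09, 0 and 0.18 TPM in WT and stood at 62.45, 62.75 and 63.17 TPM in S127A. Its usual partner KRT8 reached at most 0.54 TPM. The desmosomal plaque protein PKP2 fell from 16.95 ± 0.602 to 0.513 ± 0.199 TPM. The junction scaffold TJP1 rose from 42.4 ± 0.187 to 82.5 ± 2.24 TPM. A list with most members near 0 in WT leaves little room for a fall to be detected.

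Among 24 tested mesenchymal genes 17 rose in S127A and 7 fell, beside 40.2% higher and 49.8% lower over all genes tested, with a median log2 difference of 0.98. FN1, fibronectin, rose from 31.7 ± 0.942 to 538 ± 13.6 TPM, and CDH11, a mesenchymal cadherin, from 15.8 ± 0.885 to 119 ± 3.66 TPM. VIM, vimentin, was already abundant in WT and rose from 1531 ± 37.8 to 2284 ± 73.0 TPM. The neural cadherin CDH2 fell slightly, from 70.6 ± 3.61 to 60.1 ± 2.32 TPM (log2 change −0.23, limma adjusted p = 0.000695). SPARC, a matrix protein, fell from 1102 ± 12.3 to 119 ± 1.09 TPM. ACTA2, TAGLN, THY1, LOX and TNC stayed under 1 TPM in all 6 libraries. The list thus held members that moved in both directions by more than 8-fold on this scale, COL1A2 upward (log2 change 6.84) and SPARC downward (−3.20).

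**Figure D4:**
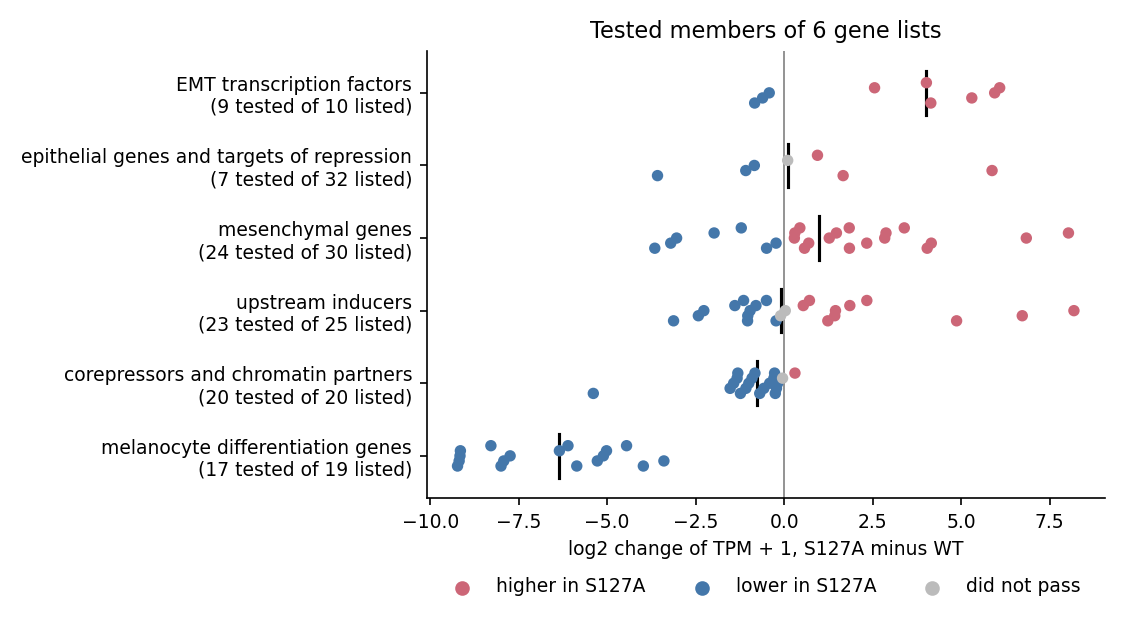
Each point is 1 tested gene placed by its log2 difference, S127A minus WT, coloured by the limma call at an adjusted p under 0.05, with the median of each list as a black bar. Medians were 4.02 for the EMT factors, 0.10 for epithelial, 0.98 for mesenchymal, −0.10 for inducer, −0.76 for corepressor and −6.35 for melanocyte genes.

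Markers of cell type moved with the same libraries, and their part in the values above was not tested. Of 19 melanocyte genes 17 were tested and 17 fell, beside 49.8% lower over all genes tested. Their median log2 difference was −6.35, and KIT and EDNRB stayed under 1 TPM in all 6 libraries. MITF fell from 143 ± 9.67 to 8.17 ± 0.487 TPM and SOX10 as given above. The defining markers of a pigmented melanoma line were thus high in WT and low in S127A. Fibroblast markers summed to 16.2 to 17.1 TPM in WT and 301 to 314 TPM in S127A, mostly from COL1A2. Of 6 that were tested, 5 rose and 1 fell, beside 40.2% higher and 49.8% lower over all genes tested. The marker that fell was POSTN, from a mean of 7.79 TPM in WT to 0.067 TPM in S127A. The fibroblast markers LUM and DPT stayed under 1 TPM in all 6 libraries, and DCN was listed at 0 in WT and at 0.97, 1.11 and 0.98 TPM in S127A.

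Immune markers summed to 8.20 to 9.04 TPM in WT and 49.3 to 54.7 TPM in S127A, of which CD14 gave 43.15, 45.76 and 46.52 TPM in S127A, and PTPRC was at 0.10 TPM or less in all 6 libraries. Of 12 immune markers 9 were listed, and CD3E, ADGRE1 and LYZ2 were not found. Of the 2 immune markers tested, CD14 rose and CD68 fell. LYZ, not on the list and named after its call was seen, was higher in S127A. No endothelial marker reached the test, and that list summed to 1.76 TPM or less in each library, with CDH5 at 0 to 0.03 TPM. Mesothelial markers summed to 0.15 to 1.13 TPM in WT and 376 to 399 TPM in S127A. MSLN gave nearly all of this, while WT1, UPK3B, LRRN4, KRT19 and BNC1 stayed under 1 TPM in all 6 libraries.

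Of 9 tested genes described for dedifferentiated melanoma 7 rose in S127A and 2 fell, beside 40.2% and 49.8% over all genes tested, with a median log2 difference of 0.62. AXL and FOSL1 rose as above, while SOX2, listed at 0 throughout WT, stood at 8.32 ± 0.725 TPM in S127A. NGFR, EGFR, WNT5A, TNC and NT5E stayed under 1 TPM in all 6 libraries. Of the members named for the differentiated state, ZEB2 fell and SNAI2 rose, and of those named for the dedifferentiated state ZEB1 and TWIST1 both rose.

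Genes with the most similar values were sought as the 3 tested genes at the smallest Euclidean distance in log2(TPM + 1) over the 6 libraries, a description in which 2 groups set most of the likeness. For ZEB1 these were CPLX2, ITGBL1 and SMIM3 (distances of 0.208 to 0.260), and for SNAI1 they were CNTNAP4, SMIM3 and KY (0.257 to 0.322). The nearest gene to ZEB2 was KANSL1 (0.132), and those for SNAI2 were SKIL, SPIRE2 and NID1 (0.136 to 0.425). SMIM3 was near both ZEB1 and SNAI1.

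ZBTB5 itself averaged 15.5 ± 0.54 TPM in WT against 8.90 ± 0.569 TPM in S127A (SD, n = 3). The groups did not overlap, and the log2 difference was −0.74 (limma adjusted p = 5.46e-07; exact permutation p = 0.1, the smallest possible). Gene-level TPM cannot reveal the substitution. Libraries of 1 group correlated at r of at least 0.998 across genes tested, which are not independent replicates. The columns summed to 862949 to 864529 TPM in WT and to 830745 to 833332 TPM in S127A, so the groups differ in how much of their RNA lies in genes outside the table. Library depth is unknown, since TPM does not keep it, and no counting error can be given.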

How the data were processed

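RNA-seq was made from 6 libraries of TNFα-treated B16F10 cells, 3 WT and 3 ZBTB5-S127A, and titles gave groups and replicate numbers. Libraries were made from TRIzol RNA with random hexamer priming and PCR, and BGI did the sequencing, per the labels' protocols. The authors deposited TPM, 1 value per gene and library, per the file headers. Build mm10 was used, per the submitters' processing notes. Which aligner, quantifier and annotation were used is not given in the sources used here. A shift of abundant genes changes every TPM of a library.

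Genes with a mean of at least 1 TPM (10348 of 14915) entered limma 3.58.1 (R 4.3.3; lmFit, then eBayes with trend, two-sided, genotype only) as log2(TPM + 1), that is with a pseudocount of 1. Adjustment was by Benjamini-Hochberg over all genes tested, at 0.05. These differences understate the change of low genes. A gene near 0 in 1 group passed the filter only through the other group, which fixes the direction of its difference. Ratios within libraries were compared by exact permutation in scipy 1.17.1. A simulated comparison of S127A with WT held 9733 genes, fewer than the 10348 tested, and 9533 of them were left unchanged. There the fit called 90 of 100 genes shifted by 0.5 in log2 units and 98 of 100 shifted by 1. It also called 3 of the 9533. In the data 90.0% of genes were called, a far larger share than was shifted in the simulation. Its rates therefore need not hold for this comparison, and none is given for members near 0 in WT.

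The members and lists were chosen with earlier results of these data known. Named were all members, a panel of 16 genes, up to 4 passing genes with the smallest adjusted p in each list, and the 3 nearest genes of 4 members. EPCAM of the panel is not analysed here, and a few genes chosen by these rules are left unreported. Alternatives were other pseudocounts, filters and scalings, no trend, robust fitting, a replicate block, and each library left out. Coordinates are from GENCODE M21 (mm10). Protein sequences are not analysed here.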

Additional observations from a re-analysis of the deposited data

How the results depend on the processing

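Under 16 alternatives each of the 9 tested members kept its direction and its call. The log2 difference of TCF3 ran from −0.45 to −0.32 and that of ZEB2 from −0.85 to −0.74. Members near 0 in WT moved with the pseudocount, TWIST1 from 3.95 to 8.55 and ZEB1 from 2.20 to 6.53. The ZEB1 to ZEB2 difference was 7.38 with a pseudocount of 0.1 and 2.96 with 5, and the SNAI1 to SNAI2 difference was 3.95 and 0.03. Leaving out each library gave 4.94 to 5.003 and 1.31 to 1.59. Quantile normalization moved the median of all genes by 0.11 (log2). The number of genes changed, 9315, ran from 8159 to 10516.

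Some list counts moved by over 1.5 times with the filter, by the number of genes that could be tested. With no filter, 9 epithelial genes were higher (3 with it), 8 fibroblast markers were higher and 2 lower (5 and 1), and 2 endothelial markers were higher and 1 lower (none tested with it). With a mean of at least 5 TPM, 1 of the E and ID proteins was higher (2 before), 4 dedifferentiated melanoma genes were higher and 1 lower (7 and 2), and 3 fibroblast markers were higher and 0 lower.

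Whether same-numbered libraries share more than a number is not given in the sources used here. Their deviations from the group means correlated at 0.117, 0.0174 and 0.0279, and not every library correlated best with its own number. With 3 libraries per group these correlations cannot settle the question. With a replicate block 9339 genes changed, each tested member kept its call, and the ratio differences stayed at 4.98 and 1.46 (exact sign-flip permutation p = 0.25, the smallest possible with 3 pairs). Depth is unknown, so values under about 1 TPM carry no stated precision.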

Other observations

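The Wnt effector TCF7L1, chosen after its values were seen because older literature calls it TCF3, was at 8.26, 8.07 and 7.37 TPM in WT and was listed at 0 in the 3 S127A libraries. Its paralog TCF7L2 averaged 10.1 ± 0.595 TPM in WT against 7.02 ± 0.981 TPM in S127A (SD, n = 3, limma adjusted p = 0.000441). The E protein TCF3, which shares a name with TCF7L1, fell by 0.42 on the log2 scale and did not come near 0.

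The keratin pair KRT8 and KRT18 was unequal in S127A, at 0.47, 0.47 and 0.54 TPM for KRT8 beside 62.45, 62.75 and 63.17 TPM for KRT18. The corepressor adaptors of the AJUBA family were also unequal, with WTIP at 0.08 ± 0.0346 TPM and AJUBA at 70.3 ± 3.30 TPM in S127A, from 44.3 ± 2.31 and 56.6 ± 2.29 TPM in WT (SD, n = 3). Both comparisons were chosen after the values were seen, and no test of the difference between the genes of a pair was made.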
